A study of Homo sapiens with 11 samples.

Results

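Weak CTCF summits found only in cells without ORC2 are described here. In the deposited CTCF summit list of ORC2 deletion cells, a site belonged to this class when its value, a −log10 q from the peak caller, was below 10 and when neither the ORC2 rescue list nor the WT list had a summit within 500 bp. The class held 8972 of the 31112 deletion summits, or 28.8%, and of 70966 summits over the 3 CTCF lists. The cells were HCT116 p53-/-, a human colorectal cancer line that lacks p53 in all 3 genotypes. The ORC2 deletion cells were 1 clone made with CRISPR/Cas9, the ORC2 rescue cells were selected clonally after ORC2 was put back on a plasmid, and the parental cells are called WT. CUT&RUN, in which an antibody brings a nuclease to a chromatin protein so that the DNA beside it is cut free, was run with a CTCF antibody or with IgG in each genotype, on 11 libraries in 6 groups of 2 libraries, except ORC2 rescue IgG with 1.

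CTCF is a zinc finger protein that binds a long DNA motif, stops cohesin as it extrudes chromatin loops and so marks loop anchors and domain borders. ORC2 is a subunit of the origin recognition complex, which loads the replicative helicase onto origins of DNA replication. CTCF also occupies many promoters, and its weaker sites vary more between cell states than the strong ones that anchor loops.

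Since the lists give 1 CTCF list per genotype and name no replicate, no spread between replicates can be given, and nothing below was checked against replicates. Library depth is unknown. The intervals below are 95% intervals that cover counting error only, and neighbouring sites are not independent of each other. The 3 CTCF lists held 31112 summits in ORC2 deletion, 20810 in ORC2 rescue and 19044 in WT cells. A CTCF site "absent" from a list is one that the caller did not list, which a weak signal in that genotype also allows.

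To show what DNA lay under these summits, sequences were read from RefSeq promoter windows on GRCh38.p14, which run from 250 bases before to 50 bases after a transcription start. A summit fell in such a window at 478 sites of the class. The windows were searched on both strands for the CTCF core CCANNAGNNGGC, of which 8 letters are fixed, and 16 of the 478 held it. The 8 with the highest values in the deletion list are printed as 30 bases along the gene's strand, with the core, or its reverse complement, in capitals.
CPT2: ccgggcgggGCCTACTAGTGGgcggggcct
SDCBP2: gactttgacGCCCCCTAGTGGccgcgtgga
PRPF6: tccgcctctCCACGAGGAGGCgctcccgcg
GOLPH3L: cgcaaacctGCCTCCTTTTGGtggtgtttg
ZNF3: cattcgtggCCAGCAGAGGGCgcagccggc
NR2C1: gcctccaagCCAAAAGGGGGCagtggactc
PSMF1: cgcagttgcGCCCGCTGTTGGgactacttc
PXMP4: ctatagacgCCACGAGTCGGCggcgctacc

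For comparison, 4 weak deletion summits with a summit in both other lists also lay in a window with the core. They were those with the highest values, at NABP2, which encodes a single-stranded DNA binding protein, PLSCR3, a scramblase, and a pair of uncharacterised genes.
LOC101927046: ctgcactcaCCAGCAGATGGCgccactaga
NABP2: gccctgtgcGCCTTCTAGTGGtggattttt
LOC124903172: cagcacagcGCCCCCTCCTGGgcgcgatcc
PLSCR3: acgcaccgcCCAGGAGGGGGCgggctcggc

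Most promoter sites of the class had no core. Of those, the sites with the highest values were at VAMP1, a synaptic vesicle protein, LOC105376435, TTBK2, a tau tubulin kinase, and RANBP10. Their 30 bases around the summit are printed in lower case throughout, since no letters are marked. The stretch at VAMP1 is not centred on its summit, which lay at -244, near the edge of the window.
VAMP1: ccgccccgtccctccgccagactggagcgc
LOC105376435: gcgcgtgcgcagtagacttggcgcaagctc
TTBK2: acctgaagatagcggcaattctccggtggg
RANBP10: ggggtatggagttcgaaatgtggtaaggcg

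The printed sites of the class lay in known promoters. On hg38, the summit at CPT2, a mitochondrial carnitine palmitoyltransferase, was at position 53196685 of chromosome 1, at -139 relative to the start, with a −log10 q of 8.64. The summit at ZNF3, a zinc finger gene, was at 100082140 of chromosome 7 (5.86), and its core lay 196.5 bp from the summit. The summit at NR2C1, an orphan nuclear receptor, was at 95073794 of chromosome 12 (5.75), with 43415 bp to the nearest WT summit. At PRPF6, a splicing factor, it was at 63980906 of chromosome 20 (8.08). At PSMF1, an inhibitor of the proteasome, it was at 1118456 of the same chromosome (5.11). Over the 8 printed sites the core stood 41.5 to 196.5 bp from the summit.

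The values that chose the class are given as a description only, since the sites were selected on them. The −log10 q ran from 1.31 to 9.996, with quartiles of 3.01 and 5.81 and a median of 4.20. Over the whole deletion list the median was 8.06. The 4374 weak deletion summits with both a rescue and a WT summit within 500 bp, called weak shared summits below, had a median of 7.33. The 540 deletion-only summits with a value of at least 10 had a median of 11.8.

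The class had no gap at its limits. Its highest values were 9.99583 and 9.99581, and the first deletion-only summits above the limit had 10.0022 and 10.0063. From 9 to 10 it held 224 sites, and from 10 to 11 there were 178 deletion-only summits above the limit. The nearest WT or rescue summit stood at 501 and 508 bp for the closest sites inside the class and at 499 bp for the closest outside it.

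The class made up most of the weakest end of the deletion list. Of 448 deletion summits with values below 2, 386 belonged to it, or 86.2%. The share was 57.1% between 4 and 5, 28.4% between 7 and 8, and 13.9% (224 of 1612) between 9 and 10, falling in each step of 1 unit.

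**Figure D1:**
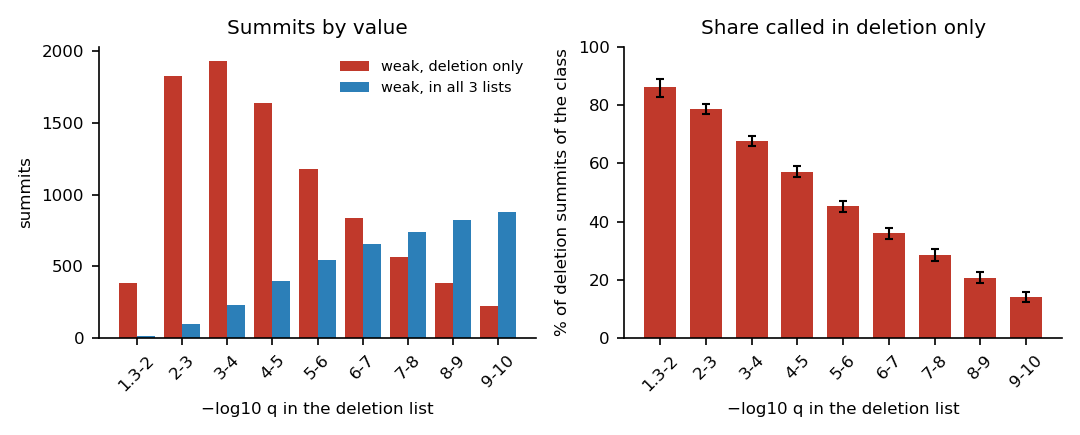
Left, number of deletion summits per class of −log10 q (width 1) for weak deletion-only summits and weak shared summits. Right, percent of all deletion summits of each class that were deletion-only, with 95% Wilson intervals as bars, which goes from 86.2% at the lowest values to 13.9% at the highest.

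The authors' deposited list of regions up in ORC2 deletion held 8948 of the 8972 sites, or 99.7%. Over all deletion summits, 30.9% lay in that list. All 9603 regions of the list had a deletion summit inside, and 0 had a rescue or WT summit inside. This is close to the rule of the class, so nothing is read from the count. The 24 sites outside the list all had a rescue or WT summit within 1 kb, at a median of 644.5 bp. Regions of the list were narrow at these sites, with a median width of 297 bp, against 382 bp at the stronger deletion-only summits. Within the class the median width was 274 bp for values of 1 to 4, 319 bp for 4 to 7 and 362.5 bp for 7 to 10. Across the 8948 sites the Spearman correlation of width and value was 0.24, a description over sites of 1 list.

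Sites of the class were mostly far from any CTCF summit of the other genotypes. The median distance to the nearest rescue summit was 29582 bp and to the nearest WT summit 33704.5 bp. A rescue or WT summit lay within 5 kb of 1110 sites (12.4%) and within 100 kb of 86.3%. These distances describe the class and are not a result, since the rule used them. The nearest other site of the class was at a median of 68985.5 bp.

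When all CTCF summits of the 3 lists were put in genome order, 4810 sites of the class (53.6%) stood alone between summits of other kinds. Another 2422 stood in 1211 pairs. Runs of 3 or more held 1740 sites (19.4%) in 507 runs. The longest, of 9 sites, spanned 2842161 bp of chromosome 11 over NTM and OPCML, neighbouring genes for neuronal adhesion molecules. A run of 8 covered RGS6, a regulator of G protein signalling, and DPF3, a subunit of the BAF chromatin remodelling complex, on chromosome 14, in 377359 bp. A run of 7 lay within ZFHX3, a homeobox transcription factor of chromosome 16, in 319639 bp. The tightest of the runs of 6 spanned 69539 bp of chromosome 5 around IRF1, an interferon regulatory transcription factor.

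Position relative to genes, spacing within the deletion list and promoter sequence were compared with those of the 4374 weak shared summits. Genes and sequence had no part in the rule, while spacing is tied to it in part, as given below. Each difference is in percentage points with its 95% Newcombe score interval, except those weighted to the values of the class, which have a normal approximation interval. A difference counted as called where that interval did not include 0. There were 5 such comparisons.

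The class lay inside genes more often and far from genes more often than weak shared summits. Of its sites, 63.5% lay inside a gene, against 60.7% of weak shared summits, a difference of 2.80 points (1.05 to 4.56). More than 50 kb from any protein-coding gene lay 17.1%, against 14.6% of weak shared summits, 2.56 points more (1.23 to 3.84). Within 1 kb of a gene end lay 19.9%, against 17.9%, 1.97 points more (0.55 to 3.36). These are small differences, and 2 of them were not called once the weak shared summits were weighted to the same values. The reweighted differences were 0.17 points for sites far from genes and 0.32 points for gene ends, while the difference inside genes was then 4.10 points and called. With 1 summit per 100 kb of each class, the difference inside genes was 1.71 points and was not called (-0.21 to 3.63).

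Another deletion summit was less often close. It lay within 5 kb of 13.6% of the sites, against 19.8% of weak shared summits, a difference of -6.26 points (-7.65 to -4.89). Part of this is fixed by the rule, because a site next to a deletion summit that has a rescue or WT partner within 500 bp of the site cannot belong to the class. Leaving out all summits with another deletion summit within 1 kb gave -5.98 points (-7.32 to -4.67). With weak shared summits weighted to the same values it was -10.5 points (-13.2 to -7.74). Of the stronger deletion-only summits 13.1% had such a neighbour, and the class differed from them by 0.44 points, with an interval that includes 0 (-2.75 to 3.13). For a neighbour within 1 kb, the difference from weak shared summits was -0.50 points and was not called (-1.10 to 0.05).

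**Figure D2:**
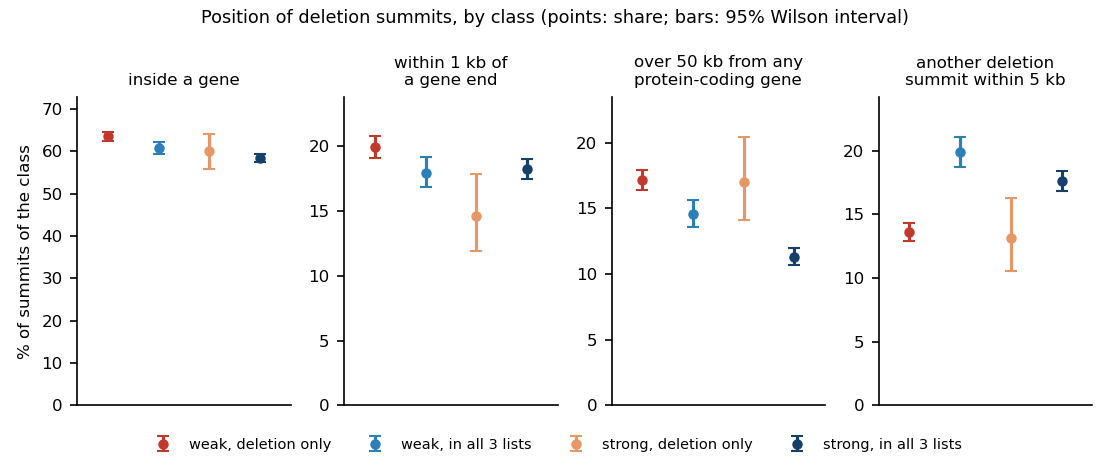
Percent of sites inside a gene, within 1 kb of a gene end, over 50 kb from any protein-coding gene, and with another deletion summit within 5 kb, for 4 classes of deletion summits, with 95% Wilson intervals as bars. Weak deletion-only summits had the highest share inside genes (63.5%) and a lower share with a close neighbour (13.6%) than weak shared summits (19.8%).

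Against strong deletion summits shared by all 3 lists, 9725 in number, the differences were wider for gene position. The class exceeded them by 5.17 points inside genes (3.77 to 6.56), with 58.4% of the strong shared summits there. It exceeded them by 5.83 points beyond 50 kb from protein-coding genes (4.83 to 6.83), with 11.3% of the strong shared summits there. Against the 540 stronger deletion-only summits, the interval left out 0 for gene ends alone among the 5, where the class had 5.29 points more (1.96 to 8.14).

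Transcription starts were taken from the promoter windows, which gave a start for 8555 sites of the class on the chromosomes covered. Within 100 bp of a start lay 277 sites, 3.24% (2.88 to 3.63), against 1.92% of weak shared summits and 1.43% of strong shared summits. For the stronger deletion-only summits it was 2.32% (1.33 to 4.01), an interval that includes the share of the class. Within 1 kb lay 13.9%, against 11.0% of weak shared summits, 2.86 points more (1.64 to 4.04). For the stronger deletion-only summits it was 9.28% (7.07 to 12.1). Differences by start were not reweighted to the values of the class. The share at more than 1 kb and up to 10 kb was lower, with 19.2% against 22.5% of weak shared summits. Over 100 kb from a start lay 12.0% of the class (11.3 to 12.7), against 10.8% of weak shared summits (9.93 to 11.8), and these intervals overlap. For the stronger deletion-only summits it was 12.4% (9.81 to 15.5).

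**Figure D3:**
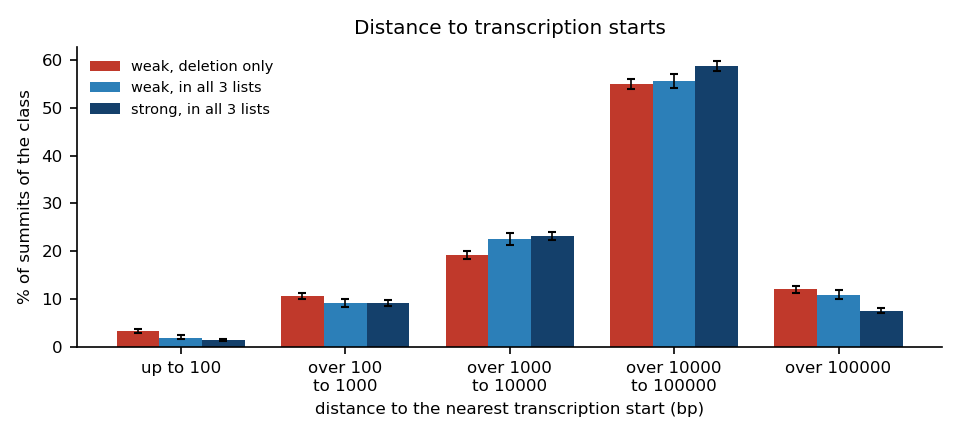
Percent of weak deletion-only summits, weak shared summits and strong shared summits by distance (bp) to the nearest transcription start, with 95% Wilson intervals as bars. Of the classes drawn, weak deletion-only summits had the highest share within 100 bp of a start, 3.24%. The stronger deletion-only summits, not drawn, had 2.32% (1.33 to 4.01).

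The CTCF core was rarer in promoters of the class than in those of weak shared summits taken over all values below 10, and rarer than in those of strong shared summits. It stood in the window of 16 of 478 sites, 3.35% (2.07 to 5.37), against 21 of 170 weak shared summits, 12.4% (8.22 to 18.1). The difference was -9.01 points (-14.9 to -4.41). Of the strong shared summits 56 of 329 had it, and of the stronger deletion-only summits 2 of 26. Over all 34961 windows the core was in 844, or 2.41%, and counted per window it was in 17 of the 572 windows with a site of the class, 2.97% (1.86 to 4.71). For this exact core the interval of the class taken over all its values thus includes the share of all promoter windows.

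Other forms of the core were searched too. With at most 1 mismatch in the fixed letters, 40.8% of the sites had a match (36.5 to 45.3), against 58.8% of weak shared summits and 32.9% of all windows. The stricter CTCF consensus with ambiguity letters was found at 3 of 478 sites (0.63%), at SDCBP2, ZNF3 and LOC105371274, against 7.06% of weak shared summits and 0.47% of all windows. The short core CCCTC was in most windows, with 81.8% in the class (78.1 to 85.0), 82.4% at weak shared summits and 71.3% over all windows. The difference of -0.55 points between the classes was not called (-6.78 to 6.63). For 1 mismatch and for the short core, the interval of the class lay above the share of all windows. The class was counted here per site, which can lie in more than 1 window, and the background per window.

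The median GC content of the windows was 63.0% both in the class and at weak shared summits, and 58.7% over all windows. Where the core was present, its distance from the summit had a median of 114.5 bp in the class and 120.5 bp at weak shared summits.

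Summit value differed between the classes compared, so the core was also counted by value. For values of 1 to 4 it was found at 7 of 224 sites of the class, against 0 of 15 weak shared summits, a number that allows up to 20.4%. For values of 4 to 7 it was found at 5 of 198, against 10 of 66. For values of 7 to 10 it was found at 4 of 56 (7.14%), against 11 of 89 (12.4%), and there the intervals overlapped. Weighted to the same values, the difference was -4.73 points (-9.25 to -0.22). That interval counts no error for values where no weak shared summit had the core, such as the 0 of 15 below 4. It is therefore too narrow, and the difference is not read as called. Restricted to values below 5, the difference was -5.06 points (-18.0 to 0.66), which was not called with 38 weak shared summits left.

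**Figure D4:**
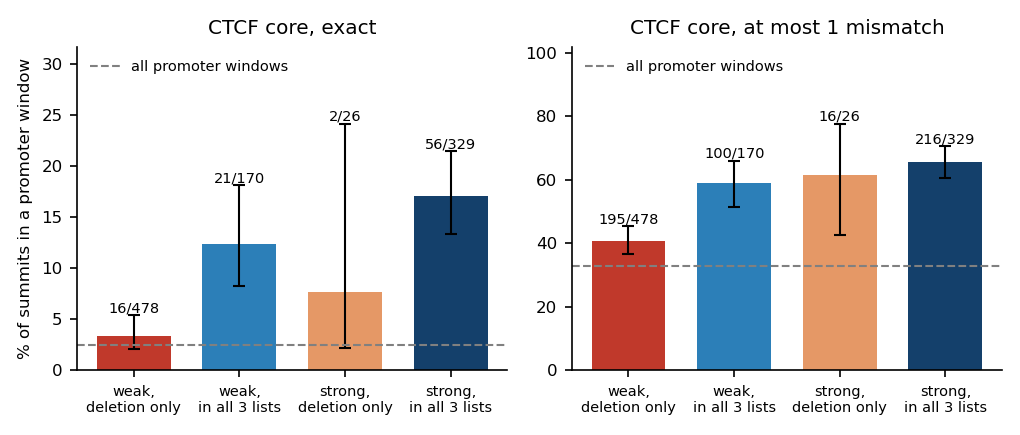
Percent of deletion summits in a promoter window that had the CTCF core in the window, exactly (left) or with at most 1 mismatch in the fixed letters (right), for 4 classes, with 95% Wilson intervals as bars and the counts above them. The dashed line is the share of all promoter windows, 2.41% and 32.9%, and weak deletion-only summits lie closest to it. On the right their interval (36.5 to 45.3%) lies above it.

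Inside protein-coding genes lay 4587 sites of the class, in 3577 genes. The genes named next were picked for having the most sites, in number or per 100 kb. High shares of their deletion summits, beside 28.8% over the whole list, follow in part from that choice. So do low rescue and WT counts. ZFHX3 had the most sites, with 9 of 11 deletion summits in the class, against 2 rescue and 2 WT summits. Their values ran from 4.13 to 9.43. One of the 9, at 73047572 of chromosome 16, lay 556 bp from a transcription start, and the others lay 28419 bp or more from one. CDH23, a cadherin of hair cells, had 8 of its 17 deletion summits in the class, against 8 rescue and 9 WT summits. ARHGAP26, a GTPase activating protein, and GLIS3, a zinc finger transcription factor, had 8 of 15 each, and both held 4 WT summits. GPHN, the scaffold of inhibitory synapses, had 8 of 27.

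In some genes the class made up all deletion summits. DPF3 had 6 of 6 inside the gene, with 0 rescue and 0 WT summits. They stood from 72635304 to 72782053 on chromosome 14, with values of 1.76 to 6.12, and a further site at 72894310 lay 209 bp outside it and as far from a start. The nearest rescue summits to the inner 6 were 121246 bp or more away. ASAP2, an Arf GTPase activating protein, had 6 of 6, with values of 1.91 to 4.13, and held 1 rescue and 0 WT summits. NDUFAF2, an assembly factor of mitochondrial complex I, had 5 of 6, with 0 rescue and 0 WT summits, and its site at 61010879 of chromosome 5 reached 8.11.

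The other genes with the most sites were GRK5, a G protein-coupled receptor kinase, with 7 of 11 deletion summits, and GRIK4, a kainate receptor subunit, with 7 of 14. TBCD, a tubulin folding cofactor, had 6 of 8, against 1 rescue and 1 WT summit. CACNA1C, a calcium channel subunit, KCNMA1, a potassium channel, RANBP2, a nuclear pore protein, and KAZN had 6 each. RCAN1, SH3RF2, GALNT7, GNG7, NR6A1, IGSF21, MYO5B, DIS3L2, TNIK and TSHZ2 had 5 each. Long genes held more sites but fewer per base. A site lay in 61.6% of the protein-coding genes over 300 kb, against 3.86% of those under 10 kb, while sites per Mb of gene were 2.10 and 8.37. The class took 27.9 to 31.3% of the deletion summits in every class of gene length.

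**Figure D5:**
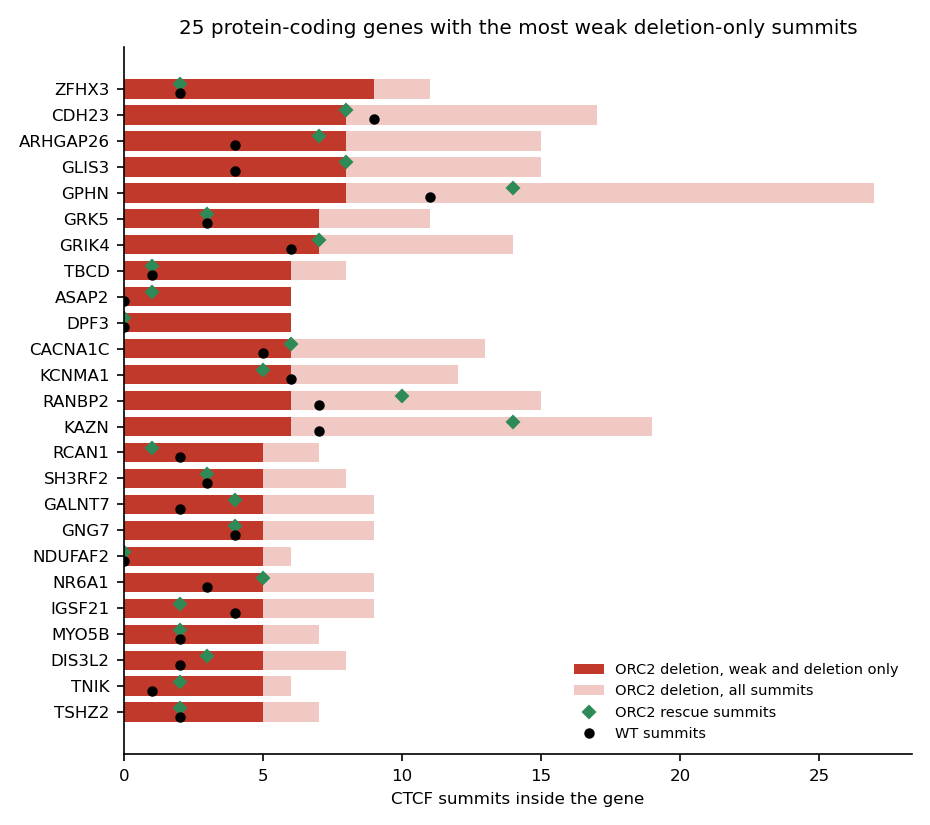
CTCF summits inside each of the 25 protein-coding genes with the most weak deletion-only summits, where dark bars are these summits, pale bars all deletion summits, diamonds rescue and circles WT summits. ZFHX3 had 9 of 11, and DPF3 6 of 6 with no rescue or WT summit.

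Per 100 kb, RCAN1, an inhibitor of calcineurin, had the most, with 5.07, from 5 sites of 7 deletion summits, against 1 rescue and 2 WT summits. One of them, at 34526880 of chromosome 21, lay 58 bp from a transcription start. PDE6A, a rod phosphodiesterase subunit, followed with 4 of 4 (4.61 per 100 kb), and RXRA, a nuclear receptor that pairs with many others, with 4 of 4 (3.50 per 100 kb). Neither had a rescue or WT summit inside the gene. The 4 sites of RXRA had values of 3.18, 5.53, 5.60 and 5.42. ECE1, an endothelin converting enzyme, and VDAC1, the mitochondrial porin, had 4 of 9 and 4 of 7.

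Taking genes with 10 kb on either side, 5810 of 19970 protein-coding genes had a site of the class, and 13401 had a summit of any of the 3 lists. In 1642 genes sites of the class were the only CTCF summits of any list, 12.3% of those with a summit. Most of these, 1361, had 1 site, 236 had 2 and 45 had 3 or more. DPF3 led with 7. DDX54, an RNA helicase, AP1B1, a clathrin adaptor subunit, TMEM232, MYT1L, a neuronal zinc finger factor, and ROBO2, an axon guidance receptor, had 4 each. The 1642 genes had a median length of 24.6 kb, against 33.1 kb for all genes with a summit, which include them. They were chosen for having no other summit, and longer genes hold more summits, so nothing is read from the lengths. IRF1 had 3, at 1292, 58 and 5536 bp outside the gene.

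The sites with the highest values that had a protein-coding gene over them or within 10 kb stood just under the limit of 10. Among them were sites in SLC15A3, a peptide and histidine transporter (9.996), COL22A1, a collagen (9.996), SBF2 (9.96), ZNF787 (9.96), GPATCH8 (9.95) and KCNMA1 (9.90). The site in CD274, which encodes the immune checkpoint ligand PD-L1, was at 5450721 of chromosome 9, 179 bp from a start, with 9.92. Its nearest rescue summit was at 129656 bp and its nearest WT summit at 8112 bp. ZNF121 (9.92) and EEFSEC, a selenocysteine elongation factor (9.86), had theirs 2481 and 82 bp outside the gene.

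Gene lists are given by counts, with a site counted for a list when it lay in one of its genes or within 10 kb. Each share is of the list's deletion summits and stands beside 28.8% over the whole deletion list, which is not a test of the list. Among replication genes, the group ORC2 belongs to, 15 of 41 deletion summits were of the class (36.6%, 23.6 to 51.9), an interval that holds 28.8%. ORC4, another origin recognition subunit, had 2 of its 4. CDC7, the kinase that fires origins, had 2 of 2, at 91500942 and 91511653 of chromosome 1, with 4.48 and 6.49, and 0 rescue and 0 WT summits. The first lay 91 bp from a start. GINS4, a subunit of the replicative helicase, also had 2 of 2 with none in the other lists. ORC2 itself had 2 of 7, at 200901556 (7.69) and 200968910 (7.61) of chromosome 2, both outside the gene. Summit lists cannot tell whether the gene was deleted.

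For DNA damage response genes the count was 14 of 35 (40.0%, 25.6 to 56.4), an interval that holds the share of the whole list. RPA1, which coats single-stranded DNA, had 2 of 4, TP53BP1 2 of 3 and CHEK1 1 of 2. In the p53 pathway and apoptosis list, of cells that lack p53 in every genotype, the count was 13 of 41 (31.7%), led by TIGAR, a regulator of glycolysis, with 3 of 5. TNFRSF10B, a TRAIL receptor, had 2 of 3, BCL2L1 2 of 4 and XPC 1 of 1. Among cell cycle genes it was 5 of 33 (15.2%), with CDK6 at 2 of 4 and CDC25C at 1 of 1.

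Genes that build chromosome architecture had 15 of 57 (26.3%). STAG1, a cohesin subunit, had 2 of 4, PDS5B, a cohesin regulator, 1 of 5, and NIPBL, the cohesin loader, 1 of 3. The site at PDS5B had a value of 8.11 and lay 238 bp outside the gene. Polycomb, heterochromatin and DNA methylation genes had 11 of 52 (21.2%), among them TET1 and DNMT3A, which remove and add DNA methylation, with 2 of 3 each, CBX1 with 2 of 7 and EHMT1 with 1 of 4. One of the sites of DNMT3A, at 25342478 of chromosome 2, lay 5 bp from a start.

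Shares of the signalling lists lay on both sides of that of the whole list, each with an interval that held it. RAS, MAPK and PI3K genes had 17 of 43 (39.5%), with ERBB4 at 3 of 8, SOS2, a RAS exchange factor, at 2 of 2, and ERBB2 at 2 of 4. TGF-beta and BMP genes had 11 of 40 (27.5%). SMAD7, an inhibitor of TGF-beta signalling, had 3 of 3, with 0 rescue and 0 WT summits and values of 4.08, 3.50 and 2.10. WNT pathway genes had 14 of 60 (23.3%), led by TCF7L1 with 3 of 7, RNF43 with 2 of 3 and ZNRF3 with 2 of 5. Nuclear receptors had 36 of 105 (34.3%), led by NR6A1 with 5 of 11, RXRA with 4 of 6 and RORB with 3 of 3. With 10 kb on either side, RXRA also had 2 rescue and 2 WT summits.

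Shares of the cell identity lists also lay on both sides, again with intervals that held that of the whole list. Intestinal epithelium genes, of the lineage of this line, had 6 of 35 (17.1%), among them GATA6, a transcription factor, with 2 of 2, and CDX2 with 1 of 2. Neuronal genes had 24 of 74 (32.4%), led by RBFOX3 with 4 of 13, NRXN3 with 3 of 6 and MAP2 with 3 of 5. Mesenchymal genes had 8 of 28 (28.6%), among them VIM and ZEB1 with 2 of 3 each, and haematopoietic genes 4 of 17 (23.5%). Developmental transcription factors had 17 of 64 (26.6%), with PAX5 at 2 of 7 and FOXF1 at 2 of 3. HOX genes had 4 of 21.

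Zinc finger genes, named ZNF, had 111 of 317 (35.0%), in 106 of the 200 such genes with a deletion summit. ZNF609 had 3 of 3, with 0 rescue and 0 WT summits and values of 4.33, 7.74 and 3.60. ZNF865 had 3 of 4 and ZNF469 3 of 8. Ribosomal protein genes had 12 of 79 (15.2%), with RPS3A at 1 of 1, 237 bp outside the gene (8.42), and RPL10A at 1 of 1, 306 bp outside it (7.07). Histone genes had 0 of 13. A count of 0 of 13 allows a share of up to 22.8% by the Wilson interval.

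The remaining lists were small or made of long genes. Imprinted genes had 5 of 26 (19.2%), among them 1 site shared by SGCE and PEG10, 1 at UBE3A and 1 at IGF2. Olfactory receptors had 14 of 61 (23.0%), and clustered protocadherins, whose genes overlap, 3 of 9. Very long genes had 40 of 126 (31.7%), led by WWOX, which spans a common fragile site, with 4 of 9.

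By chromosome, the class made up 25.3% (chromosome 19) to 33.3% (chromosome 13) of the deletion summits. The 95% Wilson interval lay above the share of the whole list on chromosomes 3 (30.9%), 13 (33.3%) and 14 (31.7%), and below it on 1 (27.0%) and 19 (25.3%). Sites per Mb ran from 1.10 on X to 5.39 on 17, with 3.05 over all. Chromosome 13, with the highest share, had 0.751 times the overall number per Mb. It held 6.89 deletion summits of any kind per Mb. In 253 bins of 10 Mb with at least 50 deletion summits, the share ran from 16.2 to 46.4%, with a median of 29.0%. In the first 30 Mb of chromosome 6 it was 45 of 189, or 23.8% (18.3 to 30.4).

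The IgG lists, the background without CTCF antibody, held 84 summits over the 3 genotypes, 34 in ORC2 deletion, 33 in ORC2 rescue and 17 in WT. None of the 8972 sites had an IgG summit of any genotype within 1 kb, and the nearest was 10695 bp away. Over the whole deletion list only 29 of 31112 summits had one within 1 kb, all outside the class. IgG summits were so few that the count of 0 says little about the class.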

How the data were processed

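CTCF and IgG CUT&RUN was analysed from 1 summit list per genotype and antibody and from the authors' up regions. Per the submitters' processing notes, FastQC 0.11.5, Bowtie2 2.2.9, SAMtools 1.12 and MACS2, without a version, were used on hg38. Peak calling settings, with any use of IgG as control, were not given in the sources used here. Each summit's deposited value is a −log10 q of the peak caller. This was taken from the file's form and values, of which the lowest, 1.31, lies just above the −log10 of 0.05. The authors' up list has no value per region. Each list was treated as pooled over its replicates.

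Summits were put on 1-based coordinates, and classes were made by the distance of 500 bp and the value of 10. Sites, lists and comparisons were chosen with earlier results of these data known. Shares have 95% Wilson intervals. Differences of shares have Newcombe score intervals, with 5 comparisons and no p-value, since sites are not replicates of a genotype. Reweighted differences have normal approximation intervals instead. They were made in value classes of width 1, and a value class without a weak shared summit was left out on both sides. Matching, gene distances, the motif search and the intervals were first tested on simulated or made-up data. The reweighted interval was simulated with more sites and higher shares than those of the core, so that test does not cover the motif difference. Genes (59094 used, 19970 of them protein-coding) came from a RefSeq table of GRCh38.p14. Its promoter windows, 34961 in number for 27195 genes, cover chromosomes other than 8, so 8555 of the sites entered comparisons by start. Windows that overlapped on opposite strands were reverse complements of each other in 2749 of 2749 cases. The motif was searched over the whole window, not within 100 bp of the summit as planned, since no genome sequence was used here.

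The named genes were the 25 with the most sites, the 10 with the most per 100 kb among those with 4 or more, those at the 10 highest values, up to 4 per gene list, by number of sites, and up to 8 promoter sites with the core for the sequences. The genes of runs, those whose only summits were sites of the class, those at promoter sites without the core and those of the compared classes were added after their values were seen. Not every gene the rule picked is described, and some are not reported here. The alternatives were other distances and limits on the value, reweighting to the value of the class, 1 summit per 100 kb, other windows and motifs, and intervals of 99%. The software was pandas 2.3.3 and NumPy 2.4.6 on Python 3.11.15, with matplotlib 3.10.9 and SciPy 1.17.1.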

Additional observations from a re-analysis of the deposited data

How the results depend on the processing

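Of 55 values under alternatives, 43 kept their direction and their side of the interval or stayed within 1.5 times the main count, and none of the 5 differences changed sign. The lower frequency of another deletion summit within 5 kb was called under every alternative counted here, from -11.0 to -5.98 points. Other neighbour distances were not counted among the 55. Within 1 kb the difference was -0.50 points and not called (-1.10 to 0.05), and within 50 kb it was -2.31 points (-3.77 to -0.83). The gene end difference was not called with a matching distance of 1000 bp (0.66 points), with values below 5 (0.97), after reweighting to the value of the class (0.32) or at 2 kb (1.36). The difference inside genes was not called with 1 summit per 100 kb (1.71). That of sites over 50 kb from protein-coding genes was not called with values below 5 (0.38) or after reweighting (0.17). The motif difference was not called with values below 5 (-5.06), within 50 bp of the summit (-1.35) or with the short core (-0.55). The first leaves fewer summits, the second few motifs, and the short core is in most windows. After reweighting, the interval of the motif difference left out 0 but is too narrow, as given above. That difference is not read as called, though it is counted among the 43. The number of sites was 5787 with a limit of 5, and chromosome 13 changed direction, with 0.751 times the overall number per Mb, below the whole, against 1.15 times the overall share, above it.

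The alternatives chosen after seeing the data were the 99% interval, which allows for the 5 comparisons and under which all 5 differences stayed called, leaving out summits near IgG summits, transcription starts in place of gene ends, 1 mismatch, and the consensus with ambiguity letters. No paired analysis was possible because there is 1 list for a genotype and its replicates are not told apart, and leaving out a replicate was not possible for the same reason. A window of 200 bp around the summit was not run. Intervals and limits cover counting error within these lists, and the unknown depth of the libraries limits what absence from a list means.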
